A study of Saccharomyces cerevisiae with 6 samples.

Results

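The pseudouridines of domain II of yeast 25S ribosomal RNA (rRNA) were examined in RiboMeth-seq data from Saccharomyces cerevisiae. They are the 11 positions listed as pseudouridine in the deposited annotation between 25S nucleotides 776 and 1124, out of 30 pseudouridines listed in 25S and 3396 nucleotides in all. The domain name comes from the general secondary structure of 25S, and no structure was drawn on to test it. The rule uses the annotation and no measured value, but it was written with earlier results of these data known.

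In RiboMeth-seq, RNA is fragmented by alkali and both ends of each sequenced fragment are counted at the bond they came from. A methyl group on the ribose blocks cleavage, so that methylated nucleotides lack read ends. The assay was designed for ribose methylation, and pseudouridines were not its target. Mature 25S was gel-purified from the wild-type strain BY4741 and from the knock-in strain YWD680, which holds a plasmid-borne artificial guide snoRNA aimed at U2954 of 25S. Whole-cell RNA came from YWD680 and from the knock-out strain YWD486, whose plasmid carries the snR67 to snR53 region with 1 substitution that stops methylation at G2619. Chromatin-associated RNA and gel-purified mature 18S came from BY4741, and the 18S library held enough 25S reads to be read as a shallow sixth measurement of 25S. No label names an allele of a pseudouridine guide in any strain, and the sources used here do not name the parents of the YWD strains. Each of the 6 groups had 1 sample, so no test between groups was possible. The only repeat was a pair of runs of the knock-in whole-cell sample, counted as 1 sample.

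Pseudouridine is an isomer of uridine in which the base is joined to the ribose through a carbon. It is made in rRNA by H/ACA small nucleolar ribonucleoproteins, in which a guide RNA pairs with the rRNA on both sides of the target uridine and the protein Cbf5 carries out the reaction, with Gar1, Nhp2 and Nop10 as partners. Many pseudouridines of domain II lie in or near the long helix known as the A-site finger, which reaches towards the transfer RNAs and the small subunit. Pseudouridine leaves the ribose 2′-hydroxyl free.

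The 11 sites span 349 nucleotides and are served, from general knowledge, by 9 guide RNAs, all of which were found by symbol in the R64 gene table. In the files' own coordinates 25S occupies the minus strand of chromosome XII from 460923 to 464318, and the sources used here do not name the genome build. Guide snR8 serves Ψ960 at 463359 and Ψ986 at 463333. Guide snR5 serves Ψ1004 at 463315 and Ψ1124 at 463195. Ψ776 at 463543 belongs to snR80, Ψ966 at 463353 to snR43 and Ψ990 at 463329 to snR49. Ψ1042 at 463277 belongs to snR33, Ψ1052 at 463267 to snR81, Ψ1056 at 463263 to snR44 and Ψ1110 at 463209 to snR82. The guide snR81 also directs a pseudouridine of the spliceosomal U2 RNA. Ψ986 and Ψ990 lie 4 nucleotides apart, as do Ψ1052 and Ψ1056, and Ψ960 lies 6 nucleotides from Ψ966 and 4 from a 5-methyluridine at position 956. These neighbours enter each other's flanks, so that their values are not independent.

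Summed over 25S, the libraries held 1229170 read ends for wild-type purified 25S, 1197181 for knock-in purified 25S, 734670 for knock-in whole-cell RNA, 214862 for the knock-out, 18489246 for chromatin and 70381 for the 18S library. Coverage was most even in wild-type purified 25S, with a coefficient of variation between positions of 0.570, and least even in the knock-in whole-cell library at 1.16. The ribose sites that the strains were built for followed the labels. G2619 scored 0.978 in wild-type purified 25S and 0 in the knock-out, where it held 114 read ends. U2954 scored 0.924 and 0.894 in the knock-in libraries and 0.376 in wild-type purified 25S.

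All 11 pseudouridines were short of read ends in wild-type purified 25S, and the shortage lay mostly in 1 of the 2 kinds of end. The protection score used here is 1 minus the read ends at a bond divided by the weighted mean of 6 positions on each side, so that 0 is the level of the flanks and 1 is a bond without ends. From 3′ and 5′ ends summed, the median score of the 11 sites was 0.727, and 11 of 11 scored at least 0.5. Of 3309 25S positions with no listed modification, 6.71% scored as high, with a median of 0.0323. The other 19 pseudouridines of 25S had a median of 0.677 and 14 of 19 scored at least 0.5. The 37 listed ribose methylations of 25S had a median of 0.975, so by median the pseudouridines lay between the unlisted positions and the methylated ones. The lists overlapped. The 11 sites ran from 0.531 to 0.872, unlisted positions reached 0.900 and the lowest ribose methylation scored 0.612. Unlisted positions hold all 4 bases, and a background of unmodified uridines alone was not used here.

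The order of the sites in wild-type purified 25S ran from Ψ990 down to Ψ1124. Ψ990 scored 0.872, with a 95% interval of 0.830 to 0.906 from 47 read ends, and ranked 37th of 3384 scored positions. Ψ960 scored 0.846 (0.793 to 0.888, 45 ends) and Ψ1052 scored 0.819 from 42 ends. The interval of Ψ960 overlapped that of Ψ990. Only 3 unlisted positions scored as high as Ψ990. At the other end Ψ966 scored 0.613 (0.546 to 0.672, 156 ends) and Ψ1124 scored 0.531 (0.462 to 0.592, 216 ends). The score of Ψ1124 was reached by 177 unlisted positions, which is 5.35% of them. The remaining 6 sites lay between 0.692 at Ψ1110 and 0.804 at Ψ1004. In this library the sites of a shared guide differed beyond their intervals, Ψ1004 and Ψ1124 of snR5 as well as Ψ960 and Ψ986 of snR8, at 0.846 and 0.724. In knock-in whole-cell RNA and in the knock-out the intervals of both pairs overlapped. In knock-in purified 25S the snR5 pair stayed apart, at 0.758 and 0.515, and the snR8 pair overlapped, at 0.763 and 0.739. In chromatin the snR5 order was reversed, with Ψ1124 at 0.900 (0.894 to 0.906) and Ψ1004 at 0.745 (0.730 to 0.759). The snR8 pair kept its order there, at 0.899 and 0.645. These intervals, and all others given here, cover counting error only. They treat each read as a separate molecule, which reads lacking molecular identifiers do not assure, so they can be too narrow.

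**Figure D1:**
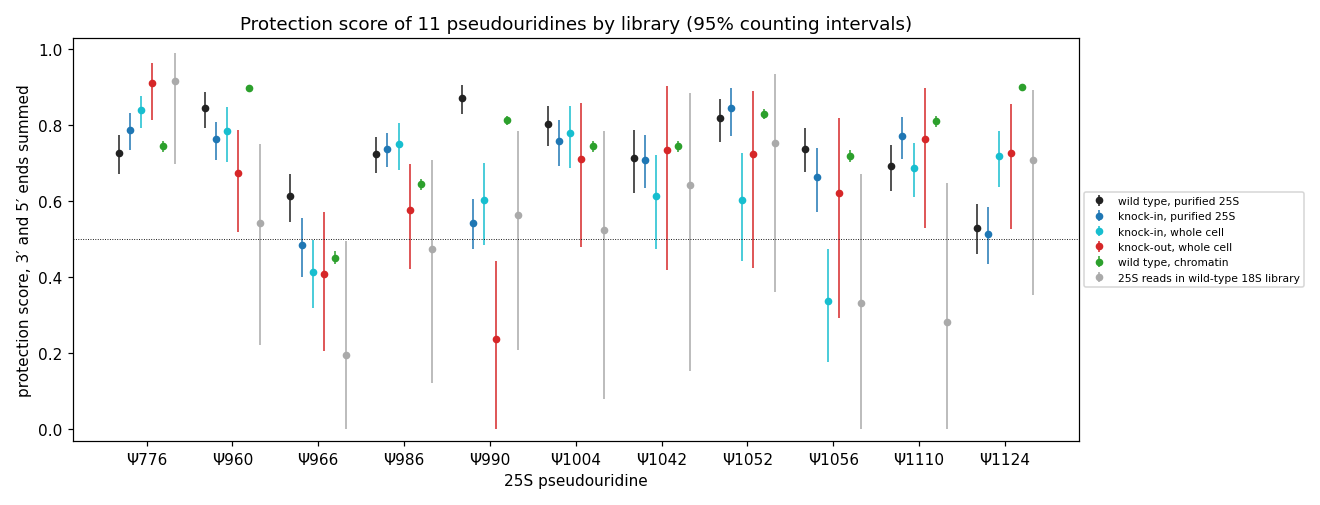
Protection score from 3′ and 5′ ends summed (vertical axis, no unit) of the 11 pseudouridines in 6 libraries, with bars for 95% counting intervals and a dotted line at 0.5. In wild-type purified 25S all 11 sites lie above the line, and Ψ990 spreads most between libraries, from 0.238 to 0.872.

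The deficit was far larger for RNA 3′ ends than for 5′ ends. Counted from 3′ ends alone, the median score in wild-type purified 25S was 0.935 and 11 of 11 sites scored at least 0.5, against 20.6% of unlisted positions. From 5′ ends the median was 0.509 and 7 of 11 sites passed, against 11.4%. The 3′ interval lay wholly above the 5′ interval at 10 of the 11 sites. Ψ986, with guide snR8, had the lowest share of 3′ ends: 7 reads ended there by their 3′ ends and 135 by their 5′ ends, giving scores of 0.973 and 0.462. Ψ776 held 11 and 107 ends, and Ψ966 held 28 and 128. At Ψ966 the 5′ score was only 0.210, so that its summed score of 0.613 came almost wholly from 3′ ends. Ψ1110 was the exception, with 67 3′ ends, 39 5′ ends and scores of 0.704 and 0.669. Ψ1124 had a 3′ score of 0.714, close to that of Ψ1110 and below the 0.884 or more of the other 9 sites.

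**Figure D2:**
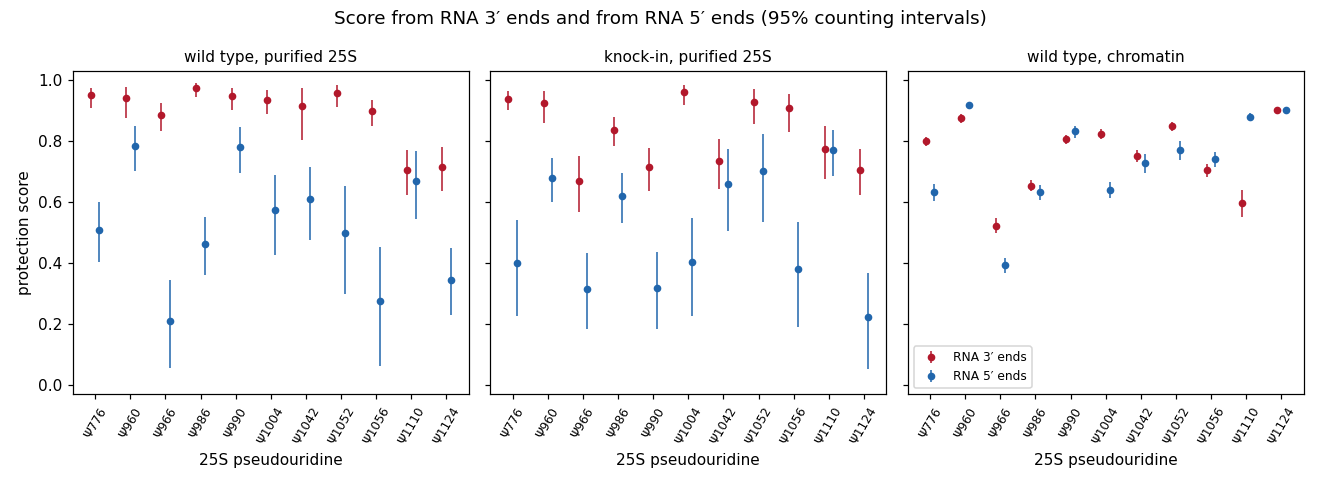
Protection scores of the 11 pseudouridines from 3′ ends and from 5′ ends (vertical axis, no unit) in wild-type purified 25S, knock-in purified 25S and chromatin, with 95% counting intervals. In wild-type purified 25S the 3′ points run from 0.704 to 0.973 and the 5′ points from 0.210 to 0.785, whereas in chromatin the medians are 0.800 and 0.741.

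A site was called 3′-poor where its 3′ level, the ends divided by the flanking mean, was at most 0.5 times its 5′ level and it held at least 10 ends. In wild-type purified 25S 10 of 11 sites were 3′-poor, against 21.0% of unlisted positions, and so were 18 of the other 19 pseudouridines. In knock-in purified 25S the count was 9 of 11, against 21.8%. In the knock-out it was 6 of 7 sites with enough ends, against 18.5%. In knock-in whole-cell RNA it was 5 of 11, against 15.0%, and among 25S reads of the 18S library 1 of 6, against 16.7%. In chromatin 1 of 11 sites was 3′-poor, against 18.5%, and flanks of 2 positions a side gave 4.

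Pooled over the 11 sites, 3′ ends made up 23.1% of ends in wild-type purified 25S (95% Wilson interval 20.7 to 25.7, 246 of 1065). The share was 31.1% (28.5 to 33.8) in knock-in purified 25S and 37.9% (31.8 to 44.5) in the knock-out. It was 47.7% (38.7 to 57.0) among 25S reads of the gel-purified 18S library, 52.5% (48.9 to 56.1) in knock-in whole-cell RNA and 53.5% (52.7 to 54.3) in chromatin. These last 3 shares lay close to the unlisted positions, which ranged from 49.8% to 53.3% over the 6 libraries. One site weighed heavily in knock-in whole-cell RNA, where Ψ966 gave 145 of the 388 3′ ends, and without Ψ966 the share was 43.5%. There the share was 80.1% at Ψ966 and 81.1% in its flanks. The pooled shares take no account of the flanks. Relative to the flanks, the median 3′ and 5′ levels were 0.202 and 0.371 in knock-in whole-cell RNA. They were 0.200 and 0.259 in chromatin, and 0.316 and 0.622 in the 18S library. Among single sites of wild-type purified 25S the share ran from 4.93% at Ψ986 to 63.2% at Ψ1110, with flanks at 51.2% and 65.8%. The median site was at 17.9% in wild-type purified 25S and at 53.3% in chromatin. Without Ψ966 the chromatin share was 58.0%. The other 19 pseudouridines kept a lower share in knock-in whole-cell RNA, 29.6%, and stood at 49.6% in chromatin and 13.1% in wild-type purified 25S. In chromatin their median site was at 39.2%, below their pooled share, and 6 of the 19 were 3′-poor. The evenness of coverage and the depth also differed between these libraries, and their part in the shares was not tested.

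**Figure D3:**
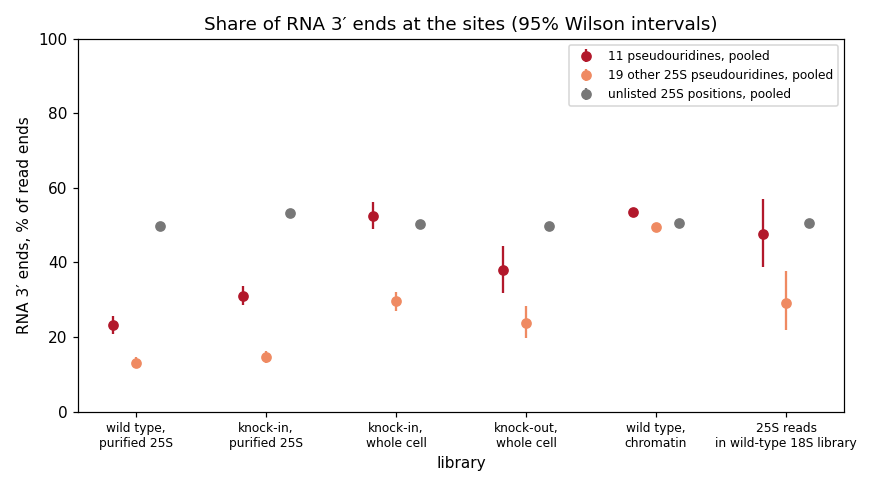
Share of read ends that are RNA 3′ ends (vertical axis, percent) in each of 6 libraries, pooled over the 11 pseudouridines, the other 19 pseudouridines of 25S and the unlisted positions, with 95% Wilson intervals. The 11 sites stand lowest in wild-type purified 25S at 23.1% and highest in chromatin at 53.5%, while the unlisted positions stay between 49.8% and 53.3%.

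The shortage of ends was not limited to the modified bond, but which neighbour shared it differed between libraries. In wild-type purified 25S the 3′-end level at the pseudouridine had a median of 0.0646 of the flanking mean. It was 0.714 at the position before, 0.619 at the position after and 1.57 at the second position after. From 5′ ends the medians were 0.491 at the site, 0.942 before and 0.598 after. Summed, the position before lay below the flanking mean at 7 of 11 sites, against 54.0% of unlisted positions. The position after lay below it at 10 of 11 sites, against 53.7%, with a median of 0.676 beside 0.812 for the other 19 pseudouridines. The lowest were Ψ990 at 0.207 and Ψ960 at 0.260, and the highest was Ψ966 at 1.09. In chromatin the position before lay below the flanking mean at 11 of 11 sites, against 60.8%, and the position after at 6 of 11, against 60.2%. In the other 4 libraries too the position before was below it at more sites than the position after. The counts were 9 and 6 in knock-in purified 25S, against 56.8% and 56.4% of unlisted positions. They were 11 and 10 in knock-in whole-cell RNA, against 62.8% and 63.8%. In the knock-out they were 11 and 7, against 59.1% and 59.1%, and in the 18S library 10 and 7, against 53.5% and 54.1%. The counts of 6 and 7 after the site, that of chromatin included, lay near the shares of unlisted positions. So did the 7 of 11 before the site in wild-type purified 25S. Wild-type purified 25S alone had the larger count after the site. None of the positions just after the 11 sites carries a listed modification.

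**Figure D4:**
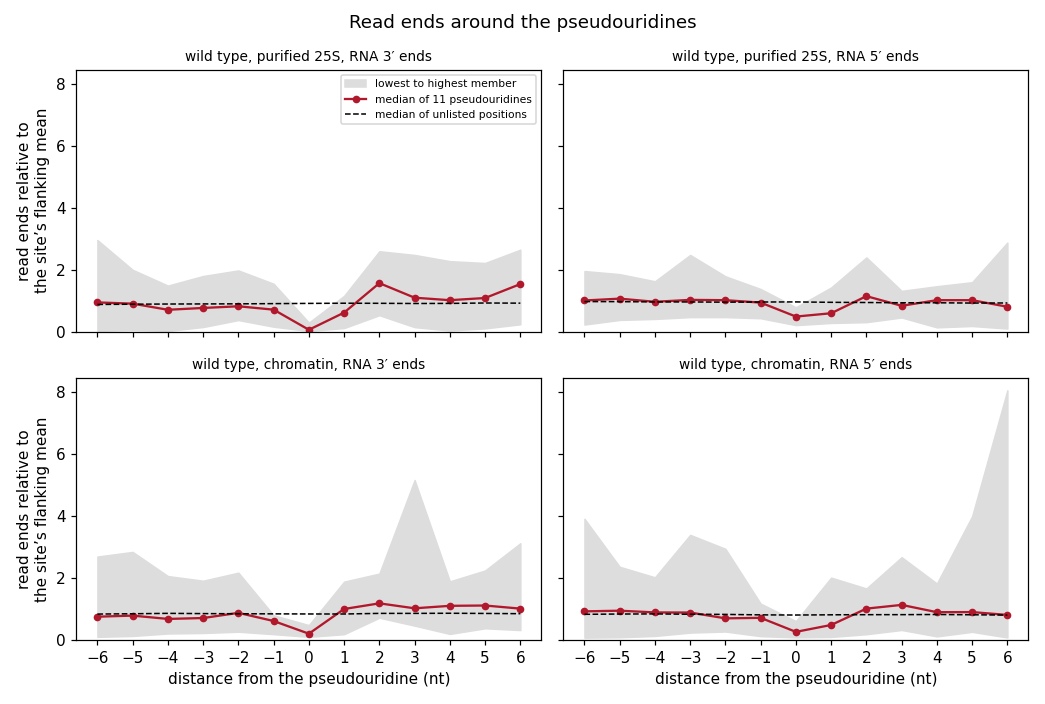
Read ends at distances of up to 6 nucleotides from the pseudouridine (horizontal axis) as a multiple of the site's flanking mean (vertical axis), for 3′ and 5′ ends in wild-type purified 25S and in chromatin; the line is the median of the 11 sites, the band their range, the dashed line the median of unlisted positions. The 3′ minimum at the site is 0.0646 in wild-type purified 25S and 0.200 in chromatin.

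Across the other libraries the summed scores stayed high for most sites. Median scores were 0.739 in knock-in purified 25S, 0.689 in knock-in whole-cell RNA, 0.712 in the knock-out, 0.745 in chromatin and 0.542 among 25S reads of the 18S library. At least 0.5 was reached by 10 of 11 sites in knock-in purified 25S against 7.98% of unlisted positions, by 9 in knock-in whole-cell RNA against 13.9%, and by 9 in the knock-out against 11.3%. It was reached by 10 in chromatin against 15.4% and by 7 in the 18S library against 7.59%. Ψ1042, with guide snR33, had the narrowest range over the 6 libraries, from 0.614 to 0.745. Its 0.614 in knock-in whole-cell RNA pools runs that scored 0.383 and 0.751, a wider gap than that range. Ψ966 was the lowest site by its median, 0.433, and passed 0.5 in wild-type purified 25S alone, with 0.484, 0.414, 0.410, 0.452 and 0.196 in knock-in purified 25S, knock-in whole-cell RNA, knock-out, chromatin and the 18S library.

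A difference between libraries was called where the relative level of ends differed by at least 1 on the log2 scale and its 95% counting interval excluded 0. Of the 6 comparisons, 4 share wild-type purified 25S as reference, so a value particular to that library enters each of them. With 1 sample a group, a call compares libraries and not strains or fractions. The runs of 1 sample gave a measure of what such calls can hold: between run 2 and run 1 of knock-in whole-cell RNA, 3 of 11 sites were called higher, against 12.2% of unlisted positions, and 3 lower, against 19.1%. The largest difference between runs was 2.28 at Ψ1052.

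Ψ990, with guide snR49, differed most between libraries. It scored 0.872 in wild-type purified 25S and 0.813 in chromatin. It scored 0.604 in knock-in whole-cell RNA, 0.544 in knock-in purified 25S and 0.238 in the knock-out (0 to 0.442), with 0.564 in the 18S library (0.208 to 0.785). The BY4741 libraries of good depth were thus the high ones, and the libraries of both plasmid-bearing strains lay lower. The shallow 18S library of BY4741 had an interval overlapping both. Run 1 of knock-in whole-cell RNA taken alone scored 0.854, among the high values. Knock-in purified 25S held 193 ends at Ψ990 where wild-type purified 25S held 47, a log2 ratio of levels of 1.83 (1.37 to 2.30). It was the 1 site of 11 called higher there, against 3.63% of unlisted positions, and none was called lower, against 2.51%. In the knock-out the log2 ratio to wild-type purified 25S was 2.58 (1.99 to 3.16), above the largest difference seen between runs, 2.28, which its interval includes. The knock-in whole-cell value was 1.63, but its runs scored 0.854 and 0.482, and from run 1 alone the ratio was 0.19 and not called. Run 2 over run 1 at Ψ990 gave 1.83 (0.68 to 2.98), and 1.82 from 5′ ends. The runs of 1 sample thus differed at Ψ990 as much as knock-in purified 25S differed from wild-type purified 25S in summed ends. The 2 kinds of end moved together at Ψ990 in knock-in purified 25S, with log2 ratios of 2.40 from 3′ ends and 1.64 from 5′ ends.

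The other summed calls were few. Knock-in whole-cell RNA against wild-type purified 25S had 3 sites higher, against 7.59%, and none lower, against 11.1%: Ψ990, Ψ1052 at 1.13 and Ψ1056 at 1.34. The knock-out against the same reference had Ψ960 at 1.08 and Ψ990 higher, against 7.08%, and Ψ776 lower at -1.62, against 8.07%. Ψ776, with guide snR80, held 7 read ends in the knock-out. Against the knock-out, knock-in whole-cell RNA had none of 11 sites called, where 4.41% of unlisted positions were called higher and 5.44% lower. Against knock-in purified 25S it had Ψ1052 higher at 1.35, against 8.61% higher and 12.4% lower. In size the values at Ψ776, Ψ960, Ψ1052 and Ψ1056 all lay below the 2.28 seen between runs.

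Chromatin-associated RNA is enriched for transcripts still near the gene. Summed over both kinds of end, the 11 sites differed from wild-type purified 25S by a median log2 ratio of -0.09. Among them 1 of 11 sites was called lower, against 13.7% of unlisted positions, and none higher, against 8.67%. The site was Ψ1124, which scored 0.900 in chromatin, 0.727 in the knock-out, 0.719 in knock-in whole-cell RNA, 0.708 in the 18S library, 0.531 in wild-type purified 25S and 0.515 in knock-in purified 25S. The 2 purified 25S libraries were the low ones. Its log2 ratio of chromatin to wild-type purified 25S was -2.24 (-2.45 to -2.02), but flanks of 2 positions a side gave -0.57, which was not called.

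Taken by kind of end, the log2 ratios of chromatin to wild-type purified 25S had medians of opposite sign. From 3′ ends 8 of 11 sites were called higher in chromatin, against 17.0% of unlisted positions, and Ψ1124 lower at -1.52, against 18.6%, with a median log2 ratio of 1.57. Ψ986 led with relative 3′ levels of 0.347 in chromatin and 0.0266 in wild-type purified 25S, a log2 ratio of 3.70 (2.63 to 4.78). Ψ966 followed at 2.04 and Ψ776 at 1.96. Ψ960 had 1.06 with an interval of -0.02 to 2.15 and Ψ1110 had 0.45, and neither was called. From 5′ ends 5 sites were called lower, against 20.3%, and none higher, against 11.0%, with a median of -0.55: Ψ960, Ψ1052, Ψ1056, Ψ1110 and Ψ1124, from -1.13 to -2.71. Ψ1052 and Ψ1056 were called in opposite directions by the 2 kinds of end, and Ψ1124 was called lower by both. With flanks of 2 positions a side, 2 sites in place of 5 were called lower from 5′ ends. Between runs, 5′ ends differed by up to 2.05, at Ψ986. Of the other 19 pseudouridines, 15 could be compared from 3′ ends and 11 were called higher, so the 3′ difference was not particular to domain II. With the knock-out as reference in place of wild-type purified 25S, 0 sites were called higher from 3′ ends. The knock-out held 3 or fewer 3′ ends at 5 sites, which were therefore not tested, among them Ψ776 with a relative level of 0.0516 beside 0.200 in chromatin.

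**Figure D5:**
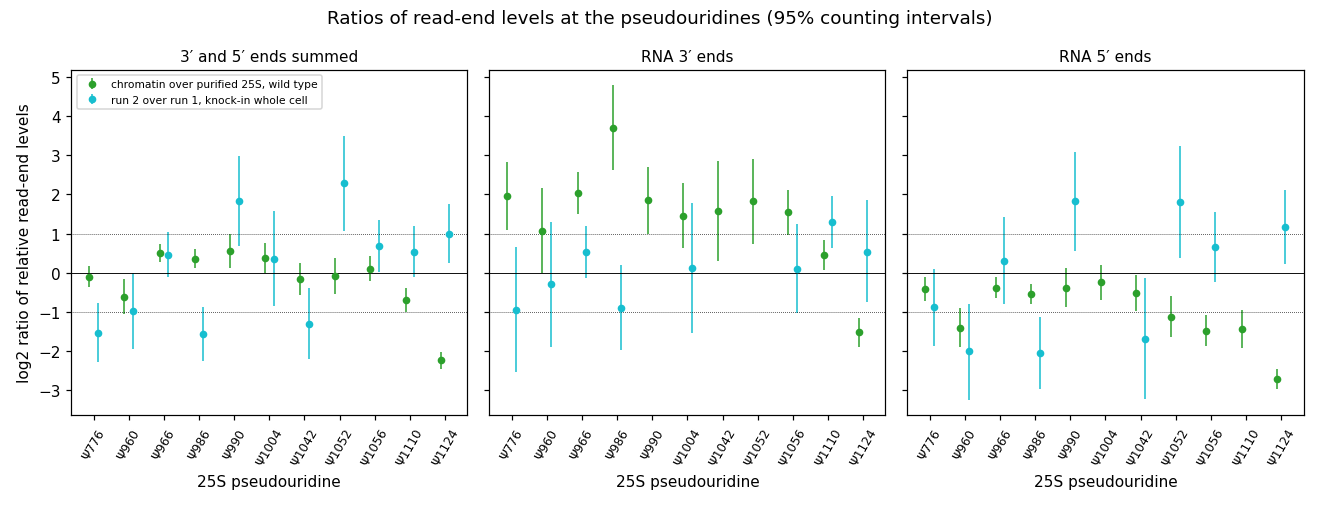
Log2 ratio of relative read-end levels (vertical axis) at the 11 pseudouridines for chromatin over wild-type purified 25S and for run 2 over run 1 of knock-in whole-cell RNA, from summed, 3′ and 5′ ends, with 95% counting intervals and dotted lines at 1 and -1. From 3′ ends the chromatin points reach 3.70 at Ψ986 and fall below 0 at Ψ1124 alone, and the run points reach 2.28 from summed ends.

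The remaining libraries were also compared with wild-type purified 25S by 3′ ends. These comparisons and that of chromatin share its counts, which are as low as 7 3′ ends at Ψ986 and 5 at Ψ1042, so a like direction is no separate support. From 3′ ends, knock-in purified 25S had 4 of 11 sites higher than wild-type purified 25S, against 10.7%, and none lower, against 10.3%: Ψ966 at 1.52, Ψ986 at 2.62, Ψ990 at 2.40 and Ψ1042 at 1.66. Knock-in whole-cell RNA had 7 of 11 higher, against 17.3%, and none lower, against 18.5%, and 3 were higher from run 1 alone. In the knock-out 5 of the 6 sites with enough ends were called higher, against 18.8%, and none lower, against 16.1%, but a site had enough ends there mainly where its level was high, so nothing is read from this count. The other 5 sites held 1 to 3 3′ ends in the knock-out, with relative levels of 0.0516 at Ψ776 and 0.0795 at Ψ1124 beside 0.0515 and 0.286 in wild-type purified 25S. Wild-type purified 25S had the lowest pooled 3′ share at the 11 sites, 23.1%. Over the 8 sites that could be tested, the largest 3′ difference between runs was 1.30, at Ψ1110. Untested sites differed more, as at Ψ1052, with relative 3′ levels of 0.0592 from 1 end in run 1 and 0.737 from 15 ends in run 2. In knock-in whole-cell RNA Ψ1110 held 76 3′ ends and 4 5′ ends, the reverse of the usual order, with a 5′ score of 0.944.

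The authors' deposited table carries a pseudouridine score of its own, whose formula the sources used here do not give. In wild-type purified 25S the authors' deposited table gives the 11 sites a median of 8.39, beside 6.74 for the other 19 pseudouridines and 0.483 for unlisted positions. In the authors' deposited table Ψ960 has the highest value, 12.5, and Ψ1110 the lowest, 1.93, which 16.0% of unlisted positions reach. Ψ1110 and Ψ1124, at 2.50 in the authors' deposited table, are also the sites with the lowest 3′ scores here. The medians of this pseudouridine score in the authors' deposited table are lower in the other libraries where it was used. There they lie below those of the other 19 pseudouridines. They are 3.83 beside 3.90 in knock-in whole-cell RNA, 2.53 beside 3.75 in the knock-out, 3.14 beside 3.30 in chromatin and 1.80 beside 4.72 in the 18S library, all from the authors' deposited table. In the authors' deposited table, runs 1 and 2 of knock-in whole-cell RNA have 4.25 beside 3.06 and 2.79 beside 4.56. Another score of the authors' deposited table, Score A, gives 0.273 beside 0 in knock-in whole-cell RNA and 0.372 beside 0.140 in the knock-out. In the authors' deposited table Score A is 0.413 beside 0.198 in chromatin and 0.104 beside 0.128 in the 18S library. By the summed score used here the 11 sites had the higher median in knock-in whole-cell RNA, 0.689 beside 0.626. They also had it in the knock-out, 0.712 beside 0.561, and in chromatin, 0.745 beside 0.716. In the 18S library they had the lower, 0.542 beside 0.552. In the authors' deposited table several single sites depart from the lower medians of the pseudouridine score outside wild-type purified 25S. Among them, Ψ1124 has 9.30 in chromatin and 9.33 in the knock-out, Ψ776 has 11.8 in the knock-out and 11.3 in the 18S library beside 8.76, and Ψ1110 has 4.49 in chromatin.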

How the data were processed

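The deposited files give, per the file headers, read-end counts at each bond for RNA 3′ ends, 5′ ends and both, and 3 scores computed by the authors, in 1 score column. Adapters were removed with cutadapt 1.2 and reads aligned with Bowtie2 2.1.0, per the submitters' processing notes. The sources used here do not give mapping options or the genome build. The knock-in purified 25S file has a data handling of its own that asks for an exact match over the 3 nucleotides nearest the RNA end, per the file headers. The sources used here do not say whether the other files share it, and handling and strain cannot be told apart there.

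From the counts, protection scores were computed with 6 positions a side, weighted from 1 to 0.5 in steps of 0.1, and negative scores were set to 0. Score intervals are Clopper-Pearson intervals with an effective flanking count, and shares have Wilson intervals. Calls between libraries needed a flanking mean of at least 10 and more than 3 ends in both, a log2 ratio of at least 1 in size and an interval excluding 0. Intervals were tested on simulated counts that held counting error alone, so that test does not cover the spread seen between runs. All 11 members are named. Members, lists and limits were chosen with earlier results of these data known. Run 1 plus run 2 equalled the combined knock-in file at all 3396 positions. Alternatives were fewer flanking positions, equal weights, flanks without listed positions, single kinds of end, single runs, other limits and another reference. Python 3.11.15, numpy 2.4.6, scipy 1.17.1 and matplotlib 3.10.9 were used. Sequences were not used here.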

Additional observations from a re-analysis of the deposited data

How the results depend on the processing

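No paired analysis was possible because each group has 1 sample. In wild-type purified 25S, where single scores were recomputed, all 11 members kept them within error with equal weights or with flanks free of listed positions. Over all alternatives, 32 of 55 recomputed member scores stayed the same and 23 moved, so the other alternatives did change single scores. By kind of end, the median score was 0.935 (3′) and 0.509 (5′) in wild-type purified 25S, 0.837 and 0.403 in knock-in purified 25S, and from 3′ ends 0.798 in knock-in whole-cell RNA and 0.800 in chromatin. With 2 flanking positions it was 0.594 in knock-in whole-cell RNA and 0.728 in chromatin. Sites scoring at least 0.5 from 5′ ends numbered 7 in wild-type and 5 in knock-in purified 25S, and 4 passed a limit of 0.6 in the 18S library. Sites called against wild-type purified 25S from 3′ ends numbered 4 in knock-in purified 25S, 7 in knock-in whole-cell RNA, 5 in the knock-out and 9 in chromatin. From summed ends with a log2 limit of 0.5, the sites called numbered 2, 6, 5 and 5. For chromatin they numbered 5 from 5′ ends. From summed ends they numbered 0 with 2 flanking positions and 4 with the knock-out as reference. Knock-in whole-cell RNA against the knock-out gave 1 with 2 flanking positions, 2 of 8 from 5′ ends, 2 from run 1, 3 from run 2 and 2 at the lower limit. From 5′ ends 550 of 3012 unlisted positions were called there. Against knock-in purified 25S, knock-in whole-cell RNA gave 3 with 2 flanking positions, 2 without listed positions and 3 of 11 from either kind of end. It also gave 3 from run 1, 2 from run 2 and 3 at the lower limit. There 1173 of 3279 unlisted positions were called from 3′ ends and 650 of 3287 from 5′ ends. Where no kind of end is named, these counts are from summed ends. For the other alternatives no share of unlisted positions is given, so those counts are not set against a background. From 3′ ends, sites higher than in wild-type purified 25S numbered 3 for run 1, and sites higher in chromatin numbered 0 with the knock-out as reference. With 2 flanking positions the 5′ sites lower in chromatin numbered 2. The 3′-poor count, whose flank alternatives were chosen after seeing the data, was 4 in chromatin with 2 flanking positions and 0 in the 18S library with equal weights. Among single sites, Ψ1124 in chromatin stood at -0.57 with 2 flanking positions and Ψ990 in knock-in whole-cell RNA at 0.19 from run 1. The cause was not tested. Depth limits the knock-out and the 18S library, where flanking means at the members ran from 22.8 to 97.0 and from 14.1 to 30.6 ends.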

Other observations

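The 13 pseudouridines listed in 18S had a median summed score of 0.577 in the gel-purified 18S library of BY4741, and 7 of 13 scored at least 0.5. From 3′ ends their median was 0.659 and from 5′ ends 0.469. The authors' pseudouridine score for knock-in purified 25S was not used here, because its track lists each 25S position more than once with different values.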
